A study of Mus musculus with 12 samples.

Results

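The genes described here encode the MHC class II antigen presentation machinery, 7 genes of the 27670 genes or other features on the arrays: the activator Ciita, listed under its older symbol C2ta, the invariant chain Cd74, the classical chains H2-Aa, H2-Ab1 and H2-Eb1, and H2-DMa and H2-DMb1. Their probes were picked by gene name, and 11 of the 41174 non-control probes carried these names. The list of names was drawn up with earlier results of these data known, so the counts below describe a chosen set. Every member had at least 1 probe well above background in every channel of all 12 arrays, so all 7 passed the filter on dim probes in every comparison.

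Class II molecules are heterodimers of an alpha and a beta chain that show peptides from the endosome to CD4 T cells. Dendritic cells, B cells and macrophages commonly make them, and many epithelial and tumour cells make them only when interferon gamma induces the activator Ciita. Ciita does not bind DNA itself but is recruited by factors already sitting on class II promoters. The invariant chain blocks the peptide groove until the endosome, where proteases degrade it, and the H2-DM dimer then exchanges its last fragment for peptide.

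The material was NR-S1, a transplantable mouse squamous cell carcinoma, grown in the hind leg of male C3H/HeMsNrs mice and irradiated at a diameter of 7.5 mm. The tested RNAs came from primary tumours 1 week after gamma rays (8 Gy) or carbon ions (5 Gy), and from lung metastases. The metastases were taken 2 weeks after the leg tumour had received the same gamma dose, the same carbon dose or no radiation. The RNA that these were set against came from an unirradiated primary tumour 1 week after it had reached 7.5 mm. Metastases and primaries thus also differed in time. All 6 RNAs were from tumour cells cut out by laser microdissection and linearly amplified, the primaries came from other mice than the metastases, and in the metastasis groups only the leg tumour had been irradiated. The labels give 1 RNA per condition and do not say how many animals it pooled. The RNAs were hybridised in pairs, each on 2 two-colour Agilent arrays with the dyes exchanged, and 10 of the 12 arrays held the unirradiated primary. No difference below has a replicate check: values are log2 ratios in the 2 dye orientations, first with the tested RNA in Cy5 and then in Cy3, and the SD is over these 2 technical repeats. A gene is said to have risen or fallen, or is counted as called, where both orientations gave a log2 ratio of 1 or more in size, a 2-fold difference, with the same sign.

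Keratinocyte and squamous carcinoma markers bore out the label: between 11 and 12 of 12 were well above background on all arrays of each RNA, and their summed normalised signal was 707903 to 966325 in the gamma primary, 674226 to 989995 in the carbon primary, 694872 to 1019263 over the metastases and 633262 to 944702 in the unirradiated primary. The dissected RNA was not of these cells alone. All 8 alveolar type II markers were well above background in every metastasis, as were 12 of 12 macrophage markers there and 11 of 12 in every primary. In the unirradiated primary, 3 of 8 alveolar type II markers were well above background on all arrays and the others on some. Their summed signal was 2947 to 45932 there, against 2840 to 3218 in the gamma primary and 2564 to 2662 in the carbon primary. The source of this signal in the unirradiated primary was not tested. Of 10 skeletal muscle markers, all 10 were well above background in every primary and 9 or 10 in the metastases. In such bulk RNA, fewer cells of a type and less RNA per cell cannot be told apart.

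Ciita, the activator, lay above the unirradiated primary in all 5 other RNAs. Its log2 ratios over the unirradiated primary were 1.49 and 1.51 in the gamma primary and 2.98 and 3.17 in the carbon primary. They were 2.69 and 2.59 in the unirradiated metastasis, 3.09 and 3.03 in the gamma metastasis and 2.81 and 2.60 in the carbon metastasis. Ciita was thus lowest in the unirradiated primary, intermediate in the gamma primary and higher in the other 4 RNAs, with no overlap of orientations between these 3 tiers. In folds, it was 2.83 times the unirradiated level in the gamma primary and 8.45 times in the carbon primary. Within the upper tier, the carbon primary (3.08 ± 0.14) and the gamma metastasis (3.06 ± 0.04) overlapped, as did the carbon metastasis (2.71 ± 0.15) and the unirradiated metastasis (2.64 ± 0.07).

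The classical chains H2-Aa (the alpha chain of I-A), H2-Ab1 (its beta chain) and H2-Eb1 (the beta chain of I-E) share a promoter architecture that the activator acts through: an X box bound by the RFX complex, and a Y box bound by NF-Y, at a near-fixed spacing. The RefSeq promoter table of GRCm38.p6, which is the C57BL/6J reference and not the C3H genome, held windows from 250 bases before to 50 bases after the annotated start for 4 of the 7 members. In 3 of them, an X box core (GNAAC) was followed on the gene's strand by a Y box (TGATTGG), with 25 to 40 bases allowed from start to start. They are shown from 60 bases before the X core to the last base before the annotated start, because they hold the motifs named above, with the X core and the Y box in capitals. The H2-Aa window is chr17:34287824-34287964 on the minus strand, the H2-Eb1 window chr17:34305716-34305866 on the plus strand and the H2-DMb1 window chr17:34153037-34153190 on the plus strand.
H2-Aa: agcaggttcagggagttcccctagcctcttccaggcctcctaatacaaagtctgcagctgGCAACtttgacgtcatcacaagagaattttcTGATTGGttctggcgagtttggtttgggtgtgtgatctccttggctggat
H2-Eb1: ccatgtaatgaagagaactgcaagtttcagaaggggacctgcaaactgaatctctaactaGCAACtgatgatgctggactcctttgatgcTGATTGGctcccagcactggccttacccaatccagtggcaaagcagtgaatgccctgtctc
H2-DMb1: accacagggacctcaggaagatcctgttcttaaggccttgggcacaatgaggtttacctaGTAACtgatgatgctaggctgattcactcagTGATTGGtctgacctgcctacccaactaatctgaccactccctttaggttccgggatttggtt
The X core started 81 bases before the start in H2-Aa, 91 in H2-Eb1 and 94 in H2-DMb1, and the distance from X core to Y box was 31, 30 and 31 bases. Searched on both strands of the 32851 windows of the table, the X core alone was present in 84.85% and the Y box in 7.82%, while the ordered pair was present in 140 windows, or 0.43%. Neither of the 2 windows of H2-DMa held a Y box with these letters. The motifs were chosen with these promoters in view, the X core and Y box searched do not overlap, and a match or its absence describes the letters in the window and nothing about binding.

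The chains followed the activator's tiers. H2-Aa stood at 1.92 and 1.71 in the gamma primary and at 2.94 and 2.67 in the carbon primary. It stood at 2.66 and 2.47 in the unirradiated metastasis, 2.52 and 2.37 in the gamma metastasis and 2.49 and 2.35 in the carbon metastasis. The carbon primary was above all 3 metastases in both orientations, and the metastases overlapped each other. A second, dimmer H2-Aa probe gave smaller ratios, 1.14 ± 0.11 in the gamma primary, 2.00 ± 0.07 in the carbon primary and 1.51 to 1.68 in the metastases, in the same order of tiers.

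H2-Eb1 had log2 ratios of 2.07 and 1.94 in the gamma primary and of 2.92 and 2.76 in the carbon primary. Its ratios were 2.57 and 2.46 in the unirradiated metastasis, 2.62 and 2.53 in the gamma metastasis and 2.57 and 2.39 in the carbon metastasis. As with H2-Aa, the carbon primary was highest without overlap and the metastases could not be put in order.

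H2-Ab1 had the least certain size, because its brightest probe read higher whenever the tested RNA was in Cy5. This probe gave 1.94 and 1.45 in the gamma primary and 2.74 and 2.35 in the carbon primary. In the metastases it gave 3.04 and 2.48 without radiation, 2.96 and 2.37 after gamma rays and 2.90 and 2.41 after carbon ions. Another H2-Ab1 probe, printed 10 times per array, leaned slightly the other way: 1.59 and 1.62 in the gamma primary, 2.42 and 2.49 in the carbon primary and 2.71 and 2.73 in the unirradiated metastasis, with an SD over the 10 spots of 0.02 to 0.06 per array. On both probes the mean was lower in the carbon primary than in the unirradiated metastasis, the reverse of H2-Aa and H2-Eb1. A dimmer probe gave 1.15 ± 0.08 in the gamma primary and 1.81 to 2.08 in the carbon primary and the metastases. The last of the 4 H2-Ab1 probes was not well above background in any RNA, and its mean ratios lay between -0.08 and 0.06 in the 11 comparisons.

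Cd74, the invariant chain, is the chaperone of all class II dimers. Its log2 ratios were 2.11 and 2.09 in the gamma primary and 3.01 and 2.82 in the carbon primary. In the metastases they were 3.06 and 2.96 without radiation, 3.24 and 3.04 after gamma rays and 3.03 and 2.96 after carbon ions. Here the carbon primary overlapped the unirradiated and carbon metastases and lay below the gamma metastasis without overlap, and all 4 were above the gamma primary (2.10 ± 0.02).

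The peptide exchange factors H2-DMa and H2-DMb1, the 2 chains of H2-DM, differed from each other in size. H2-DMb1 gave 2.36 and 2.08 in the gamma primary, 3.52 and 3.29 in the carbon primary and means of 3.17 to 3.30 in the metastases, the highest ratios of any member in the carbon primary, at 10.6 times the unirradiated level. H2-DMa gave 1.22 and 0.95 in the gamma primary, where it was not called, and 2.68 and 2.42 in the carbon primary. In the metastases H2-DMa reached 1.76 and 1.60 without radiation, 1.61 and 1.47 after gamma rays and 1.73 and 1.66 after carbon ions, and every one of these was below the carbon primary. H2-DMa departed furthest of the members from their median over the 5 ratios, by a root mean square of 0.86, against 0.14 to 0.54 for the others. H2-DMb1 has a near-identical neighbour, H2-DMb2, and the arrays may not separate them.

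**Figure D1:**
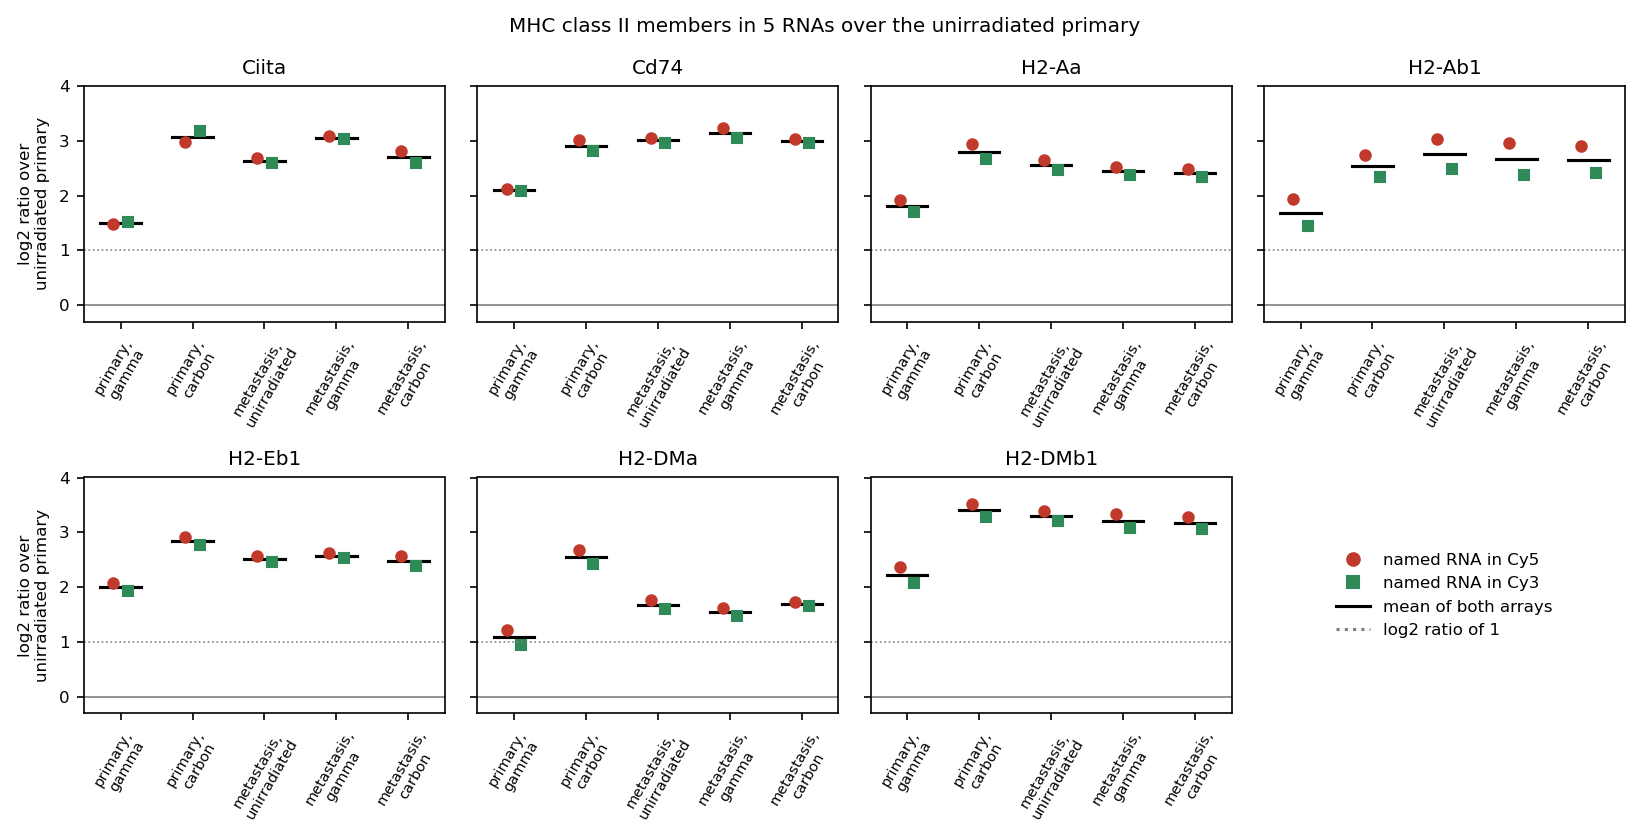
Log2 ratio of each member over the unirradiated primary (vertical axis) in 5 RNAs (horizontal axis), with a circle for the array with the named RNA in Cy5, a square for Cy3 and a bar for their mean. Every member is lowest in the gamma primary among the 5 RNAs. The mean of the carbon primary lies above those of the metastases for Ciita, H2-Aa, H2-Eb1, H2-DMa and H2-DMb1. For Ciita and H2-DMb1 its orientations overlap those of a metastasis.

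By comparison, 6 of 7 members rose in the gamma primary over the unirradiated one, with H2-DMa at 1.09 ± 0.19 the exception, where 2.23% of the 15576 genes measured rose and 1.25% fell. At a log2 ratio of 2 or more, 2 of 7 members passed, where 0.501% of genes did. Their median log2 ratio was 1.81, against 0.02 over all genes measured, and they ranked from 61st to 353rd by log2 ratio. In the carbon primary all 7 rose over the unirradiated primary, where 3.90% of 15630 genes did and 1.07% fell. The median was 2.84, against 0.02 over all genes, and the folds ran from 5.83 for H2-Ab1 to 10.6 for H2-DMb1. Both comparisons share the unirradiated primary RNA.

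Carbon ions were set against gamma rays directly, on arrays that held both irradiated primaries and no unirradiated RNA. Ciita had log2 ratios of 1.54 and 1.99 in the carbon primary over the gamma primary, H2-DMa 1.63 and 1.45, H2-DMb1 1.39 and 1.32, and H2-Aa 1.21 and 1.18. These 4 of 7 members rose, where 0.885% of the 15036 genes measured did and 0.160% fell, and Ciita ranked 34th of them at 3.40-fold. The dimmer H2-Aa probe gave 0.95 and 1.06 here and was not called. Cd74 at 0.99 and 0.92, H2-Eb1 at 0.89 and 1.02 and H2-Ab1 at 1.01 and 0.69 were above 0 on both arrays but short of 1 on at least 1 of them. The median of the members was 1.19, against 0.01 over all genes. With median centring the count was 1: H2-DMa at 2.15 and 0.95, H2-DMb1 at 2.04 and 0.61 and H2-Aa at 1.86 and 0.48 lost the call on the array with the carbon RNA in Cy3, with means of 1.55, 1.32 and 1.17, and Ciita at 2.04 and 1.49 was called. Cd74 and H2-Ab1 were just below 0 on that array, at -0.030 and -0.086. The count was 7 at a log2 ratio of 0.58, where 2.70% of genes passed. At a log2 ratio of 2 it was 0, where 0.126% of genes passed.

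The same difference could be had on other arrays, as the carbon ratio minus the gamma ratio over the unirradiated primary. That route gave Ciita 1.58 ± 0.12, against 1.76 ± 0.31 directly, and H2-DMa 1.47 ± 0.01, against 1.54 ± 0.13. The direct value exceeded the other by 0.00 to 0.20 for the 7 members, H2-Ab1 having the smallest and H2-Aa the largest gap. Through the unirradiated primary H2-Aa was at 1.02 and 0.96, short of the call that it had directly. Both routes had Ciita, H2-DMa and H2-DMb1 above the other 4 members.

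**Figure D2:**
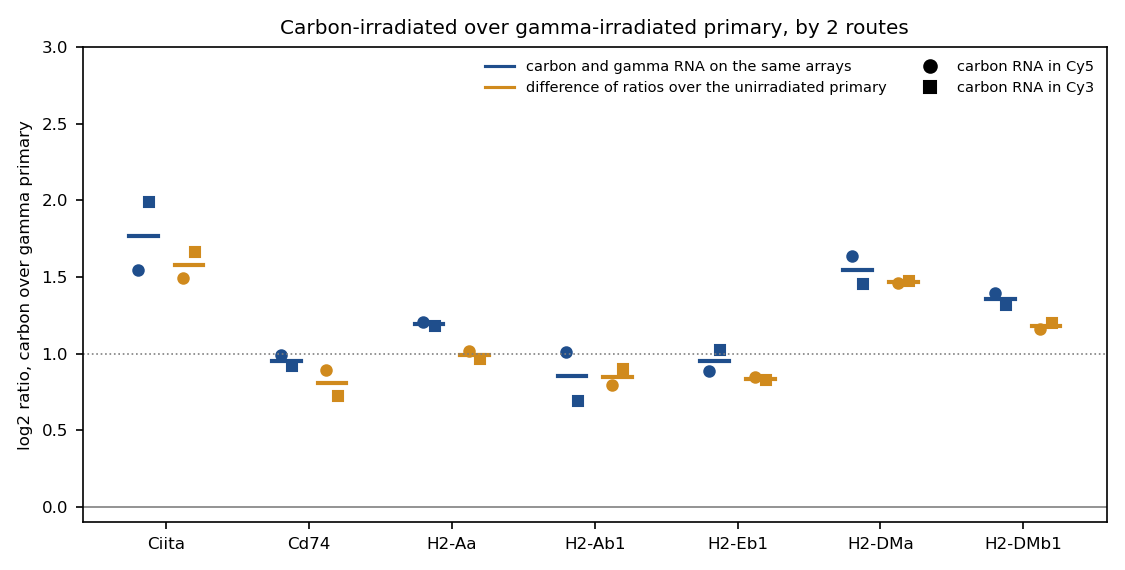
Log2 ratio of the carbon primary over the gamma primary for each member (vertical axis, log2), measured on shared arrays (blue) and as the difference of the ratios over the unirradiated primary (orange), with circles for the carbon RNA in Cy5, squares for Cy3 and bars for means. All 7 members lie above 0 by both routes, and Ciita, H2-DMa and H2-DMb1 are the highest.

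Skeletal muscle markers moved with this contrast. The source of their signal was not tested, and 9 or 10 of the 10 were well above background in the lung metastases too. In the carbon primary over the gamma primary 8 of 10 rose, with a median of 1.40, and their summed normalised signal was 29481 to 32667 in the carbon primary, 12870 to 15121 in the gamma primary and 59636 to 61944 in the unirradiated primary. Over the unirradiated primary, 10 of 10 fell in the gamma primary and 3 of 10 in the carbon primary. Their part in the class II values was not tested.

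The unirradiated metastasis over the unirradiated primary had all 7 members higher, with a median of 2.64, against 0.05 over all genes; 10.4% of the 17101 genes measured rose and 1.69% fell. All 7 also rose in the gamma metastasis (median 2.67, where 8.82% of 17661 genes rose and 1.10% fell) and in the carbon metastasis (median 2.66, where 8.21% of 16280 genes rose and 1.03% fell), both over the unirradiated primary. H2-DMb1 led in each, at 9.88-fold in the unirradiated metastasis, and H2-DMa was last in each, at 2.91-fold to 3.24-fold.

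No member was called between any pair of metastases. In the gamma metastasis over the unirradiated metastasis, 0 of 7 members were called, where 1.85% of 17344 genes rose and 1.40% fell, and the members ran from -0.14 for H2-DMa to 0.42 ± 0.04 for Ciita. In the carbon metastasis over the unirradiated metastasis 0 of 7 were called, where 1.85% of 16727 genes rose and 2.37% fell, and the members ran from -0.14 to 0.07. In the carbon metastasis over the gamma metastasis 0 of 7 were called, where 0.239% of 17126 genes rose and 1.07% fell, and Ciita was lowest at -0.35 ± 0.11. Ciita had the highest ratio in the gamma metastasis over the unirradiated metastasis, 0.40 and 0.45, while Cd74 stood at 0.18 and 0.08 and the other 5 members lay between -0.15 and 0.07; Cd74 and H2-Eb1 turned negative there with median centring or scaling between arrays. These comparisons run through the unirradiated primary, so their SDs leave out dye error, and only that of the gamma with the unirradiated metastasis lay within 1 slide.

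Within each radiation group the distance from primary to metastasis was of different size. Without radiation the members ran from 1.68 to 3.30 in the metastasis over the primary. After gamma rays they ran from 0.45 to 1.56, and 1 of 7, Ciita at 1.59 and 1.52, rose, where 7.80% of 17239 genes did and 0.905% fell. Cd74 at 1.12 and 0.96, H2-Ab1 at 1.02 and 0.93 and H2-DMb1 at 0.97 and 0.99 were near the threshold. At a log2 ratio of 0.58, 5 of 7 passed, where 14.0% of genes did, and at 2 none did, where 2.29% of genes did. After carbon ions they ran from -0.86 to 0.11, and 0 of 7 were called, where 6.86% of 16209 genes rose and 1.93% fell. At a log2 ratio of 0.58, 1 passed on the lower side, where 5.69% of genes did. Here H2-DMa, at -0.95 and -0.76, had the lowest ratio, Cd74 and H2-Ab1 were above 0 in both orientations and the other 5 members below 0 in both. The medians were 2.64, 0.98 and -0.36 in the order no radiation, gamma rays and carbon ions, 0.168 after gamma rays and -0.792 after carbon ions with scaling between arrays, and 0.595 and -0.557 with median centring; no test of the difference between these groups was possible with 1 RNA each. For the irradiated groups, metastasis and primary were hybridised on different slides. With scaling between arrays H2-Aa and H2-Eb1 were below 0 after gamma rays, at -0.0048 and -0.11, the count there was 0, and Cd74 and H2-Ab1 were below 0 after carbon ions, at -0.42 and -0.33; median centring also turned the last 2 negative, at -0.23 and -0.19.

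**Figure D3:**
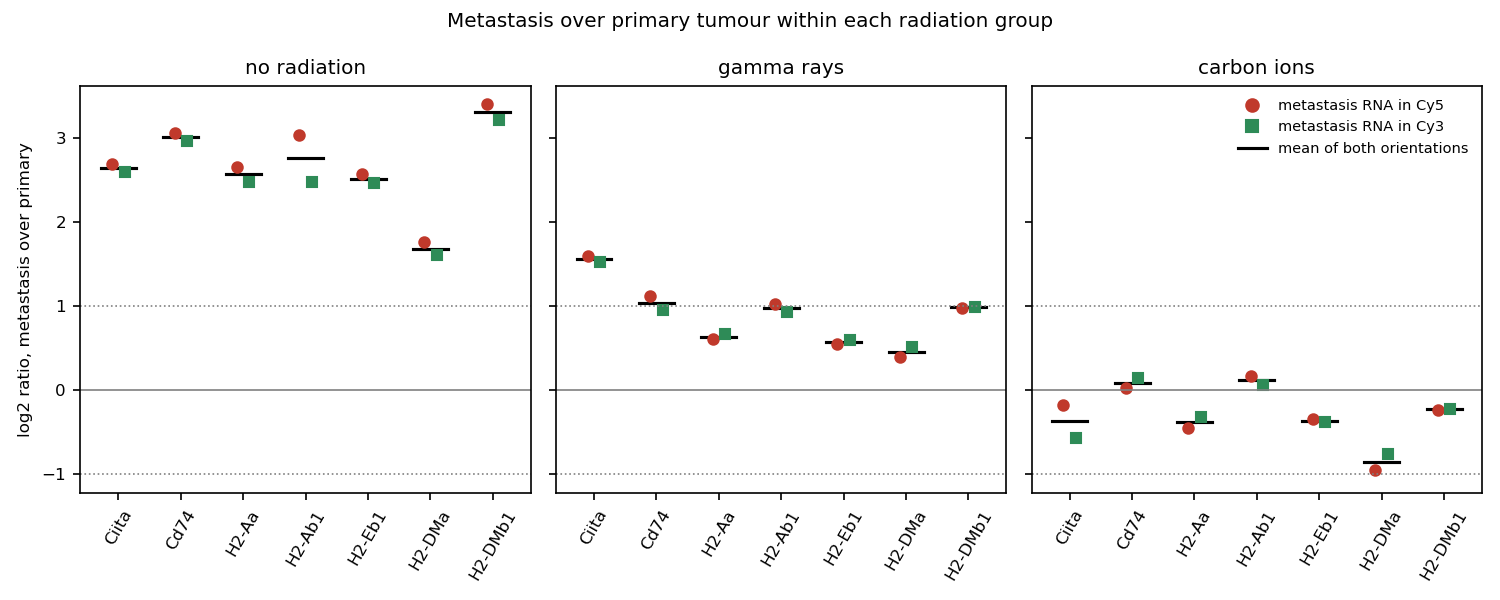
Log2 ratio of the metastasis over the primary tumour (vertical axis) for the 7 members (horizontal axis) without radiation, after gamma rays and after carbon ions, with circles for the metastasis RNA in Cy5, squares for Cy3 and bars for means. The members sit between 1.68 and 3.30 without radiation, between 0.45 and 1.56 after gamma rays and between -0.86 and 0.11 after carbon ions.

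The factors that hold the class II promoters, Rfx5, Rfxap and Rfxank of the RFX complex, Nfya, Nfyb and Nfyc of NF-Y and Creb1, were called in none of the 11 comparisons, with all 7 measured in each. Their median log2 ratio was 0.02 in the gamma primary and 0.33 in the carbon primary over the unirradiated one. Rfx5 was at 0.24 ± 0.04 and 0.54 ± 0.02 in these primaries, and Creb1 at 0.44 ± 0.46 and 0.59 ± 0.43. In the metastases over the unirradiated primary the medians lay between -0.06 and 0.00.

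The list of genes from interferon gamma to Ciita held members that rose. Of its 9 genes, 3 rose in the gamma primary, 4 in the carbon primary, 5 in the unirradiated metastasis, 3 in the gamma metastasis and 2 in the carbon metastasis, all over the unirradiated primary. Irf1, a transcription factor that acts on the interferon-responsive Ciita promoter, averaged 1.14 ± 0.10 in the gamma primary, 1.94 ± 0.12 in the carbon primary and 1.20 to 1.60 in the metastases.

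Ifng, the cytokine itself, did not stand clear of background in the unirradiated primary on any of these arrays. It was called higher in both irradiated primaries and in the unirradiated metastasis. Ifng was at least 1.92-fold higher in the gamma primary and at least 5.18-fold higher in the carbon primary, and at least 7.41-fold, 1.62-fold and 1.89-fold higher in the metastases without radiation, after gamma rays and after carbon ions, the last 2 without reaching the threshold. These bounds set the mean signal of the brighter RNA against the lowest signal that was well above background, or the dim probe's own signal where that was higher. Directly between the irradiated primaries, Ifng had 1.45 and 1.20 in the carbon primary over the gamma primary. In the carbon metastasis over the carbon primary, Ifng fell by 1.34 ± 0.17, while Ciita stood at -0.37 ± 0.28. Ifng was also called lower in the gamma metastasis and in the carbon metastasis over the unirradiated metastasis, where Ciita stood at 0.42 ± 0.04 and 0.07 ± 0.07. The receptor chain Ifngr1 and the kinases Jak1 and Jak2 were called in none of the 5 comparisons with the unirradiated primary, and Socs1, the feedback inhibitor, rose by 1.22 ± 0.01 in the carbon primary and by 1.76 ± 0.02 and 1.17 ± 0.03 in the unirradiated and gamma metastases.

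Of the other class II chains, 3 to 4 were measured per comparison, and H2-Eb2 in none. H2-DMb2, the twin of H2-DMb1, rose in all 5 RNAs over the unirradiated primary, at 1.80 ± 0.08 in the gamma primary, 2.95 ± 0.05 in the carbon primary and 2.39 to 2.64 in the metastases. H2-Ea, the alpha chain partner of H2-Eb1, which C57BL/6 mice lack and C3H mice make, did not stand clear of background in the unirradiated primary on the arrays shared with the irradiated primaries. It was at least 1.40-fold higher in the gamma primary, where it was not called, and at least 2.80-fold higher in the carbon primary, where it was. H2-Ea was also called in the unirradiated metastasis, at least 2.13-fold higher, and not in the gamma metastasis, at 0.79 ± 0.13, or the carbon metastasis, at least 1.73-fold higher. H2-Oa, a chain of the H2-DM inhibitor H2-DO, was short of the threshold in the irradiated primaries, at 0.46 ± 0.32 after gamma rays and 0.71 ± 0.29 after carbon ions. It rose by 1.32 ± 0.23 in the unirradiated metastasis, by 2.59 ± 0.31 in the gamma metastasis and by 1.38 ± 0.30 in the carbon metastasis. Its partner H2-Ob was measured against the unirradiated primary in the gamma metastasis alone, at least 1.70-fold higher and not called.

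The endosomal proteases and the reductase Ifi30, which prepare antigen and degrade the invariant chain, included no gene called in the primaries: 0 of 8 measured were called in the gamma primary and 0 of 7 in the carbon primary, with medians of 0.05 and 0.00. Ctss, the protease that makes the last cut in the invariant chain, was at 0.88 ± 0.30 in the gamma primary. In the unirradiated metastasis 4 of 8 rose, Ctss by 3.34 ± 0.65, Ctsh by 1.66 ± 0.21, Ctsd by 1.54 ± 0.08 and Lgmn by 1.53 ± 0.26. In the carbon metastasis 3 of 8 rose, with Ctss at 2.26 ± 0.33, and in the gamma metastasis 0 of 7. Ctss had no value in the carbon primary or the gamma metastasis over the unirradiated primary; in the carbon primary over the gamma primary it was at 0.47 and -0.12.

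Among genes of class II turnover, Marchf1, a ubiquitin ligase that sends surface class II to degradation, and Cd83, which opposes it, were called in neither irradiated primary: Marchf1 was at 0.11 ± 0.22 after gamma rays and 0.19 ± 0.33 after carbon ions, and Cd83 at 0.57 ± 0.14 and 0.83 ± 0.09. In the metastases Marchf1 rose by 2.71 ± 0.23 without radiation, 2.18 ± 0.21 after gamma rays and 1.48 ± 0.19 after carbon ions. Cd83 rose by 2.06 ± 0.10, 3.03 ± 0.12 and 2.18 ± 0.14 in the same order. The other genes of this list, Marchf8, Il10, Prdm1 and Bcl6, were called in none of the 5 comparisons with the unirradiated primary in which they were measured.

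The counterpart pathway of MHC class I, which presents peptides from the cytosol, was compared through H2-K1, H2-D1, B2m, Tap1 and Tap2; Nlrc5, the class I homologue of Ciita, is not analysed here, and probes for H2-K1 and H2-D1 may share signal because the genes are much alike. All 5 rose in both irradiated primaries over the unirradiated one, with medians of 2.30 after gamma rays and 2.68 after carbon ions. Between carbon and gamma primaries 0 of 5 were called, with a median of 0.32, where the class II members had 1.19. H2-K1 was at 0.22 ± 0.38 and B2m at 0.20 ± 0.26 there, and Tap2 was highest at 1.08 ± 0.26. In the carbon metastasis over the carbon primary, Tap1 fell by 1.81 ± 0.27 and Tap2 by 1.41 ± 0.15.

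Of the antigen receptor complex and class II coreceptors on T cells, Cd3g rose in both irradiated primaries and Cd3d in the carbon primary. On the arrays shared with the irradiated primaries, neither stood clear of background in the unirradiated primary. Cd3g was at least 2.87-fold higher in the gamma primary and at least 3.63-fold higher in the carbon primary. Cd4 was not measured in either comparison. Lag3, an inhibitory receptor that binds class II, was at 0.02 ± 0.07 in the gamma primary and 0.42 ± 0.16 in the carbon primary.

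Markers of cells that commonly make class II were set beside the members. In the irradiated primaries those of dendritic cells, macrophages and B cells held no called gene. Of dendritic cell markers, 0 of 6 measured were called in the gamma primary and 0 of 7 in the carbon primary, with medians of -0.17 and 0.08. Their summed normalised signal was 4432 to 4664 in the gamma primary and 4705 to 4868 in the carbon primary, against 4728 to 5111 in the unirradiated primary, and Flt3, Clec9a, Ccl22 and Siglech were not well above background in any of these primaries. Of macrophage markers, 0 of 12 were called in either, with medians of 0.04 and 0.11. Their sums were 51478 to 53672 after gamma rays and 50329 to 53810 after carbon ions, against 23066 to 52468 without radiation. The median sums over channels were 52877, 51356 and 48514 in this order. Of B cell markers, 1 was measured in the gamma primary and 2 in the carbon primary and 0 were called. Their sums were 592 to 661 and 584 to 638, against 584 to 785, and Cd79a and Pax5 were above background in none of the primaries. Of the 8 B cell markers, 7 were above background on no array of the gamma primary and 6 on none of the carbon primary. These sums thus lie near background and could not show a small difference. The summed signal of the class II members themselves was 43595 to 48485 in the gamma primary and 92888 to 96981 in the carbon primary, against 10528 to 14800 in the unirradiated primary. Of T cell markers, 1 of 6 rose in the gamma primary and 3 of 7 in the carbon primary, with medians of 0.68 and 1.09. The sum of the T cell markers was 2266 to 2312 and 2606 to 2812, against 1608 to 1874. Their part in the result was not tested.

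In the metastases more of these markers were called. Over the unirradiated primary, 10 of 12 macrophage markers rose in the unirradiated metastasis, 5 in the gamma metastasis and 4 in the carbon metastasis. Marco and Lyz2 were among them in each. The medians of the list were 1.77, 0.82 and 0.80 in this order, and its lowest ratios -0.18, -0.36 and -0.57. The sums ran from 267732 to 498250 over the 3 metastases. Dendritic cell markers rose in 3 of 9, 3 of 10 and 4 of 8, Itgax, Ccr7 and Ccl17 in each, with sums of 8263 to 9982. B cell markers rose in 2 of 6, 6 of 8 and 2 of 4 in the same order, with sums of 2235 to 2517 without radiation, 12090 to 12117 after gamma rays and 1691 to 1960 after carbon ions. T cell markers rose in 5 of 8, 5 of 8 and 4 of 7, with sums of 4003 to 4515, 6286 to 7271 and 2652 to 3129. Alveolar type II markers, of epithelial cells that themselves carry class II in the mouse lung, rose in 7 of 8 in each metastasis, with medians of 3.98 to 4.19. Their part in the class II values of the metastases was not tested. The class II sums were 93955 to 101403 without radiation, 90832 to 101560 after gamma rays and 85563 to 90861 after carbon ions.

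**Figure D4:**
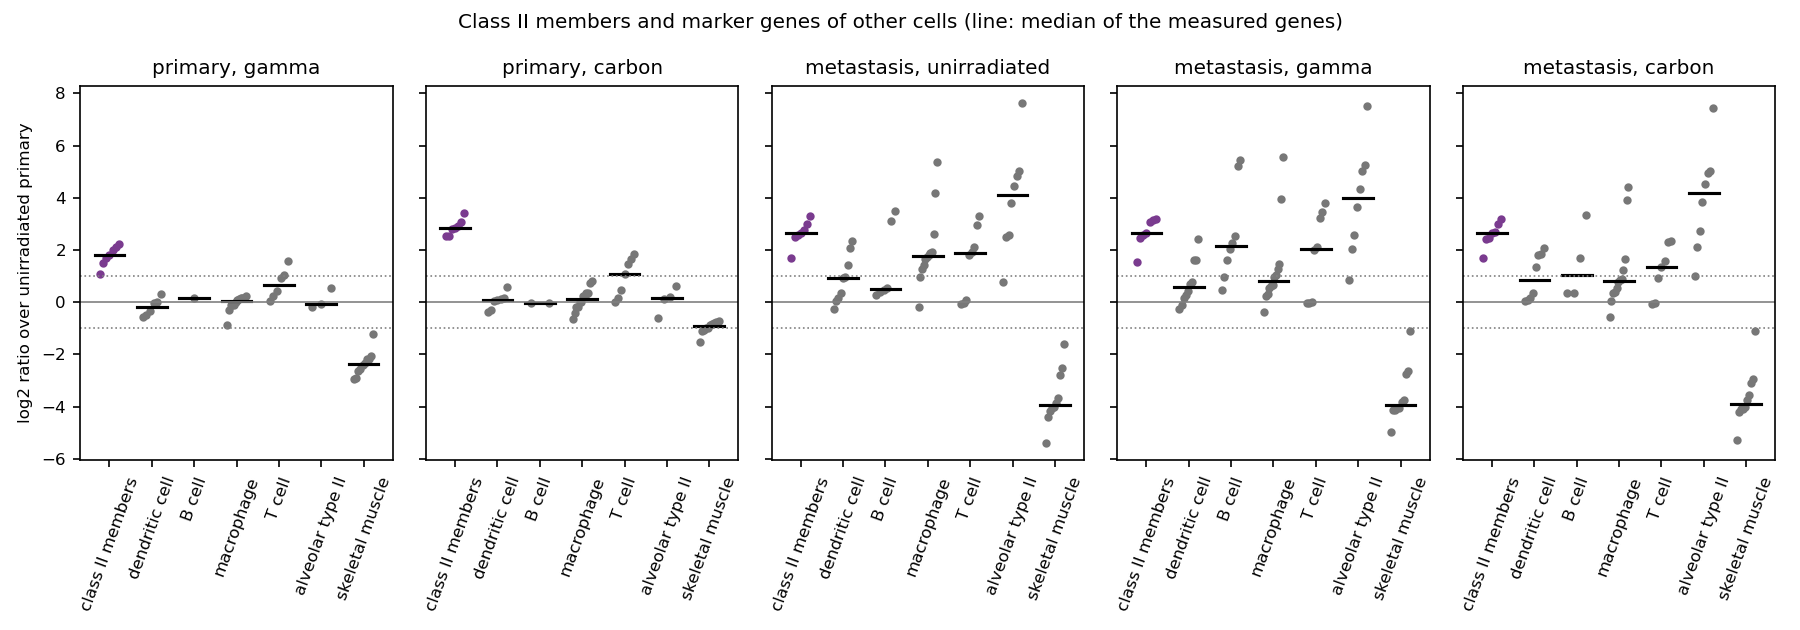
Log2 ratio over the unirradiated primary (vertical axis) of the 7 class II members (purple) and of the measured marker genes of other cells (grey) in 5 RNAs, 1 point per gene, with a bar at the median. In the gamma and carbon primaries the class II medians are 1.81 and 2.84, the macrophage medians 0.04 and 0.11 and the T cell medians 0.68 and 1.09. In the metastases the alveolar type II medians are 3.98 to 4.19.

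Of the members, H2-DMa, H2-DMb1, H2-Ab1, H2-Aa and H2-Eb1 lie in this order on chromosome 17 in the RefSeq gene table, Ciita on chromosome 16 and Cd74 on chromosome 18. From Brd2, next to H2-DMa, to H2-Eb1 the table lists 7 genes that are not members, Brd2, H2-DMb2, Psmb9, Tap1, Psmb8, Tap2 and H2-Ob. Of the 6 measured, 5 rose in both irradiated primaries over the unirradiated primary. The exception was Brd2, a general chromatin reader, at 0.56 ± 0.44 in the gamma primary and 0.84 ± 0.38 in the carbon primary. The immunoproteasome genes Psmb9 and Psmb8 in this stretch stood at 3.92 ± 0.20 and 3.76 ± 0.32 in the carbon primary, above every class II member there. In the gamma metastasis, where every member stayed high, Tap1 was at 0.72 ± 0.18.

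Among the 14996 genes measured in all 5 comparisons with the unirradiated primary, the 5 nearest to the median of the members by root mean square difference of the log2 ratios were H2-DMb2 at 0.14, Lgals3bp at 0.16, Ifit3 at 0.17, Uba7 at 0.20 and Phf11a at 0.27. The 5 nearest to Ciita were H2-DMb2 at 0.31, Ifit3 at 0.32, Sp110 at 0.34, Il2rb at 0.35 and Uba7 at 0.37. The 5 ratios share the unirradiated primary, so this is a description of these 6 RNAs. Ifit3 and Uba7, are both induced by interferon. Ifit3 was at 2.06 in the gamma primary, 2.90 in the carbon primary and 2.73 to 2.89 in the metastases.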

How the data were processed

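Per the file headers, the 12 deposited scanner files were made with Agilent Feature Extraction; the intensity used here is each spot's mean signal and median local background per channel, which the authors deposited without normalization. The deposited log10 ratio is Cy5 over Cy3 of signals that the software had background-corrected and dye-normalized, per the file headers; the authors' value table equalled it within 0.005, with column medians of 0. The direction of every ratio came from the dyes in the labels.

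Ratios were computed with limma 3.58.1 in R 4.3.3 (data.table, version 1.17.8): normexp background correction with an offset of 50, which pulls ratios of dim spots toward 0, and loess within each array with control and flagged spots (16 to 58 flagged of 43379) at weight 0. No spot was saturated, and the share of spots well above background was 53.8% to 68.8% per channel. Precision is limited by having 1 RNA per condition. Spots were averaged per probe, and the probe brightest over all arrays stood for a gene. A gene counted as measured if, on each array of a comparison, either RNA stood well above background at its probe. Of the 41174 probes, 22951 took their name through an accession, 6659 through a current and 3109 through an older symbol in the RefSeq table of GRCm38.p6, and 8455 kept the file's name. Normalised signals are the loess-normalised channel signals after quantile normalization of the average intensities. Of 11 comparisons 6 were direct, and 5 were differences between arrays of one orientation through the unirradiated primary. Both arrays of each swap lay on the same of 3 slides. With 1 RNA per condition, no p-value was computed. Later steps used Python 3.11.15, numpy 2.4.6, pandas 2.3.3 and matplotlib 3.10.9. Calls were tested on simulated data, but no outcome is given here, and the error rate of calls in these data is not known.

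The members were all named, and from each gene list up to 4 genes per comparison, those called with the highest ratios or otherwise those largest in size. The members and lists were chosen with earlier results of these data known. Alternatives were no offset, median centring, Agilent's processed log ratio, scaling between arrays, the mean of all probes, no filter, both RNAs above background, each orientation alone and other fold thresholds. The count over the interferon gamma list includes a gene whose values are not reported here.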

Additional observations from a re-analysis of the deposited data

Results flagged for a closer look

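For 9 pairs of values, a member was higher after radiation in the primary tumour on both arrays and lower after the same radiation in the metastasis in both orientations, each time over the unirradiated tumour of the same site. The difference between the sites was not tested, since each condition had 1 RNA. After gamma rays, the metastasis value was -0.12 ± 0.03 for H2-Aa against 1.81 ± 0.15 in the primary, -0.088 ± 0.02 for H2-Ab1 against 1.69 ± 0.35, -0.14 ± 0.01 for H2-DMa against 1.09 ± 0.19 and -0.10 ± 0.06 for H2-DMb1 against 2.22 ± 0.20. After carbon ions, it was -0.016 ± 0.02 for Cd74 against 2.91 ± 0.14 in the primary, -0.14 ± 0.03 for H2-Aa against 2.80 ± 0.19, -0.10 ± 0.05 for H2-Ab1 against 2.54 ± 0.27, -0.037 ± 0.05 for H2-Eb1 against 2.84 ± 0.11 and -0.13 ± 0.03 for H2-DMb1 against 3.40 ± 0.17. Under the 9 alternatives run for each, 8 of these metastasis values stayed below 0 throughout. The other, H2-Eb1 after carbon ions, was at 0.02 with Agilent's processed log ratio. The filters and single orientations could not turn a value, since the flag required both orientations below 0. Median centring and scaling between arrays lowered the median of the members in these contrasts. It was -0.22 and -0.27 after gamma rays, and -0.18 and -0.24 after carbon ions. Staying below 0 in these settings thus says little about the sign. The median over all genes was -0.03 in both metastasis contrasts.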

How the results depend on the processing

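Of 121 recomputed counts of members called, 111 were within 1.5 times the reported count and none changed direction. The other 10 were as follows. At a log2 ratio of at least 2, 2 members were called in the gamma primary over the unirradiated primary, 0 in the carbon primary over the gamma primary and 0 in the gamma metastasis over the gamma primary. At a log2 ratio of at least 0.58, 7 were called in the carbon primary over the gamma primary, 5 in the gamma metastasis over the gamma primary and 1, lower, in the carbon metastasis over the carbon primary. Median centring left 1 in the carbon primary over the gamma primary. Scaling between arrays left 0 in the gamma metastasis over the gamma primary and gave 1, lower, in the carbon metastasis over the carbon primary, and the Cy5 orientation alone gave 3 in the gamma metastasis over the gamma primary. Of 700 recomputed member values, 536 moved by less than the SD and 164 beyond it, and no called value changed sign. The filters and the single orientations could not move a value beyond the SD, and they make up much of the 536. Median centring moved 48 of 77 values beyond the SD and scaling between arrays 60 of 77. Median centring moved the median of all genes by -0.17 in the gamma and in the carbon metastasis over the unirradiated primary, by -0.19 in both irradiated metastases over their primaries, and Agilent's processed ratio moved it by -0.15 in the unirradiated and by -0.10 in the gamma and carbon metastases over the unirradiated primary. Of all genes called, the share called higher was 78.4% in the carbon primary over the unirradiated primary, 84.7% in the carbon primary over the gamma primary, 86.0% in the unirradiated metastasis and 88.9% in the gamma metastasis over the unirradiated primary, and 67.4%, 71.6%, 73.0% and 76.8% in this order with Agilent's processed ratio. It was 89.6% in the gamma metastasis over the gamma primary, 78.9% there with median centring and 77.9% with Agilent's processed ratio. It was 78.0% in the carbon metastasis over the carbon primary and 65.1% there with median centring. It was 56.8% in the gamma metastasis over the unirradiated metastasis, and 46.5% with median centring, 45.1% with scaling and 66.9% with Agilent's processed ratio. The cause of these changes was not tested. No paired analysis was possible because each condition had 1 RNA and the labels give no second replicate number. The filter on dim probes changed no member, since every member was above background in every channel.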
